A study of Mus musculus with 2 samples.

Results

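The regions described are the stronger DNase I hypersensitive peaks that were called in replicate 1 and not in replicate 2 of 2 DNase-seq libraries of mouse fetal liver. They were chosen by measured values, as replicate 1 peaks of the longer deposited list on chromosomes 1 to 19 with a value of 1.5 or more that shared no base with a replicate 2 peak of the longer list. The value is the signal that the authors gave each peak. Of 19639 replicate 1 peaks at or above 1.5, 1273 met the rule (6.48%), among 45733 replicate 1 and 35415 replicate 2 peaks on these chromosomes. Both libraries came from 1 group, embryos of strain C57BL/6N,129 at day 13.5 that are labelled with a HET globin mutation and an LCR deletion. LCR is taken to stand for the locus control region of the beta-globin genes, although the labels leave it unexplained, and neither the extent of the deletion nor the number of embryos per biosample is stated. Replicates 1 and 2 are 2 biosamples that share a donor identifier, sex was not collected, and there was no control group.

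DNase I cuts DNA where nucleosomes have been displaced, so its cuts collect at promoters, enhancers and insulators. A transcription factor bound within such a site shields a few bases from the enzyme and leaves a footprint. The fetal liver at this stage is the main site of red cell formation, where GATA1, KLF1 and their partners act at enhancers of globin, heme and membrane genes. The alpha-globin enhancers lie in part within introns of the neighbouring gene Nprl3, and the beta-globin genes are driven by the locus control region upstream of Hbb-y.

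The members fell into different kinds of site according to their distance from the nearest replicate 2 peak. There were 704 isolated members, more than 500 bases from any replicate 2 peak, which were 3.58% of the 19639 peaks and mostly lay away from transcription starts. The other 569 members lay within 500 bases of a replicate 2 peak and are called close members; most were in promoters beside a peak that the libraries shared. The reference is the 18366 replicate 1 peaks at or above 1.5 that overlapped a replicate 2 peak. They were stronger on the whole, so their shares are also given weighted to the members' value bands where this is stated. Because the rule used both peak lists, the replicate 2 measurements at the members are descriptions without a test. The 95% intervals given are exact binomial (Clopper-Pearson) intervals that cover counting error only, and regions are not replicates of a condition.

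The following 7 isolated members are shown because they lie nearest to, or within, genes of the red cell programme; those at Cpeb4, Car2, Hemgn and Klf3 were picked after their values were seen. Each sequence is the whole replicate 1 peak on the plus strand of mm10, taken from the RefSeq GRCm38 genome. Capitals mark the bases covered by a replicate 1 footprint. None of the 7 held a replicate 2 footprint.
Nprl3 intron, chr11:32250941-32251160: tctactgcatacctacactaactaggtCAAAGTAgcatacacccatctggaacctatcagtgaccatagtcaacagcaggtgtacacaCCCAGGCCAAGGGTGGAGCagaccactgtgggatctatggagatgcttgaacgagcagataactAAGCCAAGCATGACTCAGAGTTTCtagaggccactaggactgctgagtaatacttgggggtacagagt
Upstream of Hbb-y, chr7:103859201-103859340: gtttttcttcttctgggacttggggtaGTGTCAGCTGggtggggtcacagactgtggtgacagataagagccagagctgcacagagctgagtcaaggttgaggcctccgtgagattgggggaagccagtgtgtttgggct
Lmo2 intron, chr2:103982341-103982480: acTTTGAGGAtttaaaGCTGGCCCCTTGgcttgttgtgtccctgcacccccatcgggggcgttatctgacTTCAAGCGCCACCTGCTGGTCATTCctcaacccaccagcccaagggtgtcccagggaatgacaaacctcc
Near Cpeb4, chr11:31831621-31831840: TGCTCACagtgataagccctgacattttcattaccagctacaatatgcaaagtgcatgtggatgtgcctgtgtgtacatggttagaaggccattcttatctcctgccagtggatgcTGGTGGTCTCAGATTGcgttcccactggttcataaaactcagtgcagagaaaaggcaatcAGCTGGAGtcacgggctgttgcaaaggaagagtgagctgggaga
Near Car2, chr3:14879041-14879260: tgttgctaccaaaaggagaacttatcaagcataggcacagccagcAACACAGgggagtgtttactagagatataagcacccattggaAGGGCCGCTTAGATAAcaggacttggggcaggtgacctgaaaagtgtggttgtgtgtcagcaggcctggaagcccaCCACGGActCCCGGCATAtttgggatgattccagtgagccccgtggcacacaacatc
Hemgn intron, chr4:46410761-46410980: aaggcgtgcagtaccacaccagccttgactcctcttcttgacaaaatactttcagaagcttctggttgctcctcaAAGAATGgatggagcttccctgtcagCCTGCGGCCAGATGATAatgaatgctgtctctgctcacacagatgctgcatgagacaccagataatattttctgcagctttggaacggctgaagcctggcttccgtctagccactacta
Klf3 intron, chr5:64809941-64810160: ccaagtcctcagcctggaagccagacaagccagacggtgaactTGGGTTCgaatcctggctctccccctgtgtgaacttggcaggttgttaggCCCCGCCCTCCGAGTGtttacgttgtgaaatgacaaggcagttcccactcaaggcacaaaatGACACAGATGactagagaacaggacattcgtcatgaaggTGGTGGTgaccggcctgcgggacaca

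Matches to consensus motifs, searched on both strands, differed in whether they lay in the capitals. The Car2 site held the GATA motif AGATAA at bases 98 to 103 of the printed run, all 6 of them within a footprint. The Hemgn site held a composite GATA and E-box motif, CTG followed after 9 free bases by GATA, at bases 103 to 118, and all 16 lay within a footprint. In the Nprl3 site the AP-1 motif TGANTCA at bases 163 to 169 lay within a footprint, whereas AGATAA at bases 145 to 150 had none of its 6 bases covered. At Lmo2 the CTCF motif (CCA, 2 free bases, AGG, 1 free base, GGC) lay wholly within a footprint, and AGATAA at bases 62 to 67 did not touch one. At Klf3 the KLF motif CCNCNCCC and the SP motif GGGCGGGG matched the same bases, 94 to 101, within a footprint. The Hbb-y and Cpeb4 sites each held AGATAA outside the footprints, as did the Hemgn site at bases 161 to 166. A match shows that the letters are present, not that a factor was bound.

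The member with the highest value among the isolated ones lay at the alpha-globin enhancers. This peak in an intron of Nprl3, a gene encoding a subunit of the GATOR1 complex, had a replicate 1 value of 5.41, with 3 footprints and a lowest false discovery rate of 7.21e-11 for its cleavage rate. In replicate 2 none of its bases was listed, the deposited table giving only stretches with a rate under 0.05, and the nearest replicate 2 peak was 4951 bases away. The Nprl3 gene body held 6 peaks in replicate 1 and 5 in replicate 2, and the member was the one missing from replicate 2. The 5 other peaks overlapped between libraries, with values of 6.89, 3.87, 6.94, 3.41 and 9.11 in replicate 1 and 4.13, 2.27, 2.18, 1.79 and 7.24 in replicate 2. Replicate 1 was higher at each of them. For overlapping peaks in general the median value was 3.73 in replicate 1 and 2.59 in replicate 2. These peaks were chosen by a floor on the replicate 1 value alone, so these medians do not compare the libraries in general. The median over each library's whole peak list was 1.232 in replicate 1 and 1.248 in replicate 2. The other member assigned to the alpha-globin cluster, nearest to the theta-globin gene Hbq1b and 264 bases from a replicate 2 peak, had a value of 2.03 and a replicate 1 rate of 0.0221, with no listed base in replicate 2.

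At the beta-globin locus 3 members, all isolated, lay in the 25000 bases upstream of Hbb-y, the embryonic epsilon-type globin gene. Their values were 1.86 (chr7:103859201-103859340), 1.77 (chr7:103865781-103865980) and 1.68 (chr7:103870781-103870980), and none had a base listed in replicate 2. The third has its nearest protein-coding start at the olfactory receptor gene Olfr66 and was named after its values were seen. In the same stretch replicate 1 had 5 peaks and replicate 2 had 1. That shared peak, chr7:103861041-103861200, had a value of 8.75 in replicate 1 and 2.05 in replicate 2. Over the globin genes themselves replicate 1 had 4 peaks, the highest 4.65, and replicate 2 had 3, the highest 1.91, with 1401 and 740 listed bases. The upstream stretch had 1344 listed bases in replicate 1 and 279 in replicate 2. The sources used here do not say how values scale between the libraries, and whether both libraries carry the labelled deletion alike at these bases was not tested.

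Members were weaker than the peaks with a replicate 2 counterpart. Their median value was 1.86 (range 1.503 to 16.1), with medians of 1.76 for isolated and 2.03 for close members, against 3.73 for overlapping peaks. The share of peaks that were members was 17.9% for values of 1.5 to 2, 8.01% for 2 to 3, 2.66% for 3 to 5, 1.16% for 5 to 10 and 0.261% above 10. Isolated members numbered 507, 176, 20, 1 and 0 in these bands, and close members 270, 160, 84, 47 and 8. The single isolated member above 5 is the Nprl3 site. At the threshold itself, the members just inside were nearest to Map1s, Zfp617 and Bsn, at 1.503 each, and the peaks just outside were nearest to Ackr3, Arl8a and AW822073, at 1.491 each. Members were found on all 19 chromosomes, making up 4.48% of the peaks at or above 1.5 on chromosome 13 at the least and 9.32% on chromosome 8 at the most.

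**Figure D1:**
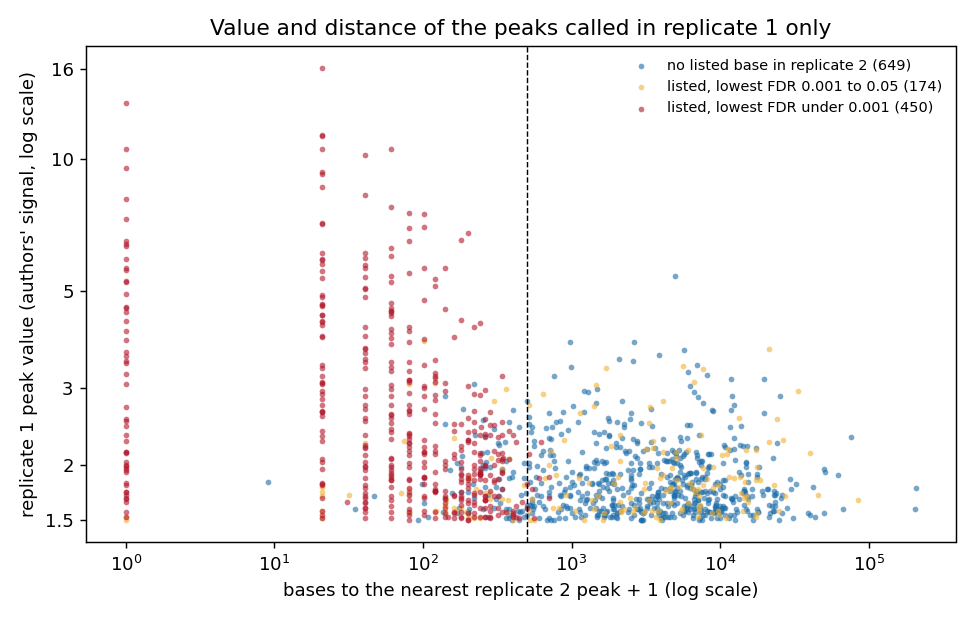
Replicate 1 value (the authors' signal, log scale) of each of the 1273 members against its distance in bases to the nearest replicate 2 peak, plus 1 (log scale), with the dashed line at 500 bases. Colours give the replicate 2 false discovery rate (FDR): 649 members had no listed base, and nearly all of the 450 with a rate under 0.001 lie left of the line, as do all 20 of the highest members.

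The isolated members had weaker replicate 1 rates than overlapping peaks of the same band. For values of 1.5 to 2 the median of the lowest rate per peak was 0.000137 for isolated members, 2.25e-07 for close members and 7.12e-08 for overlapping peaks. For 3 to 5 it was 2.09e-08, 1.75e-21 and 1.52e-18. The shorter, stricter replicate 1 list held 68.6% of isolated members (65.0 to 72.0) and 88.6% of close members. It held 94.3% of overlapping peaks when these were weighted to the isolated members' value bands.

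Close members were beside, not apart from, replicate 2 signal. Of the 569, 53 touched a replicate 2 peak without sharing a base and 283 lay within 100 bases of one. For 513 of them (90.2%) the nearest replicate 2 peak overlapped another replicate 1 peak, and 524 (92.1%) had another replicate 1 peak within 500 bases. Such a neighbour was found for 40.2% of overlapping peaks weighted to the values of close members. Replicate 2 listed at least 1 base for 492 close members (86.5%), a rate under 0.001 for 443 (77.9%) and every base for 395 (69.4%). By contrast, replicate 2 listed at least 1 base for 132 isolated members (18.8%, 15.9 to 21.8), and a rate under 0.001 for 7 (0.994%, 0.401 to 2.04). The split was made by distance to replicate 2 peaks, which come from the same library as these rates. A contrast of this direction thus follows in large part from the split. Where isolated members were listed, the median of the lowest rate was 0.0386 and the median length listed was 20 bases. Overlapping peaks had a rate under 0.001 in 92.1%, and in 79.9% when weighted to the values of isolated members and 84.8% when weighted to those of close members. With the weights of close members, every base was listed in 70.9% of them, close to the share of close members. Peak edges followed a grid, since 941 of the 1273 members (73.9%) began at a multiple of 20 bases, and 28 members (2.20%) shared bases with another replicate 1 peak of the same list.

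**Figure D2:**
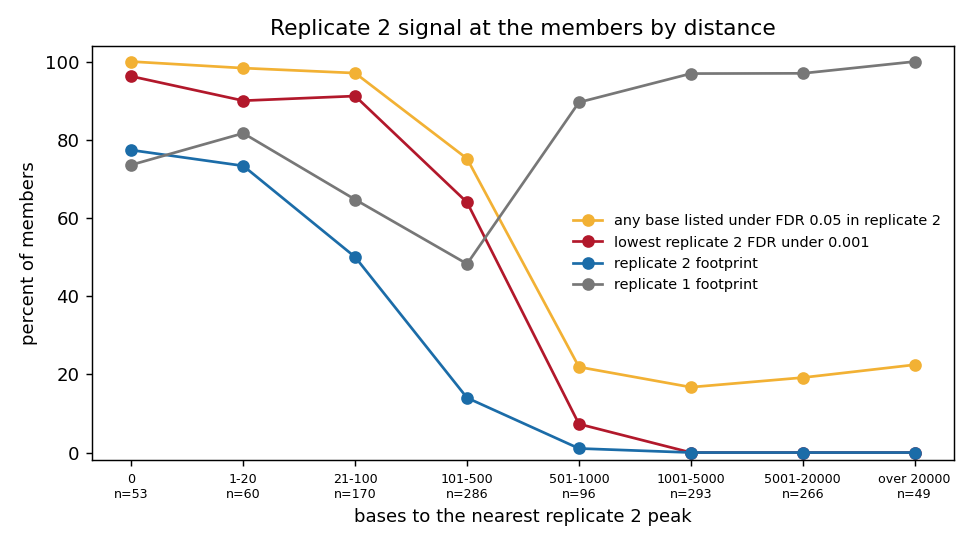
Percent of members with at least 1 replicate 2 base listed under a false discovery rate (FDR) of 0.05, with a lowest replicate 2 rate under 0.001, with a replicate 2 footprint and with a replicate 1 footprint, by distance in bases to the nearest replicate 2 peak (n members under each class). Listed signal is at 75.2% for 101 to 500 bases and at 21.9% for 501 to 1000, whereas replicate 1 footprints are most frequent beyond 1000 bases.

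Footprints differed between the kinds of member. A replicate 1 footprint lay in 96.2% of isolated members (94.5 to 97.5) and in 59.1% of close members (54.9 to 63.1). Among overlapping peaks the share was 88.2% when weighted to the values of isolated members and 91.4% when weighted to those of close members. The share over all members was 79.6%. These shares count presence only and were not matched for location. The median number of replicate 1 footprints was 2 in isolated members, 1 in close members and 4 in overlapping peaks. Away from starts it was 2 in isolated members and 3 in overlapping peaks. A replicate 2 footprint lay in 1 isolated member (0.142%), 210 close members (36.9%) and 92.6% of overlapping peaks. Footprints were called from the same reads as the peaks, so these shares are no independent measure.

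The highest members were mostly promoter peaks, and their bases were fully listed in replicate 2. All 20 with the highest values were close members, 16 lay no more than 1000 bases from a protein-coding start, and all had a replicate 2 rate under 0.001. The first was a 60-base peak at the start of Vezt, a gene for an adherens junction protein, at chr10:94035861-94035920. It had a value of 16.1 in replicate 1, while the nearest replicate 2 peak lay 20 bases away and the lowest replicate 2 rate within the member was 6.48e-40. The next were at the starts of the spindle and cell cycle gene Prr11 (13.4, touching a replicate 2 peak), the RNA helicase gene Ddx39 (11.3, 20 bases away) and Rhbdd3 (11.3, 20 bases away). All bases of these 4 were listed in replicate 2. The others, in falling order of value, were nearest to Fdxacb1, Cdk19, Atp6v0c, Banp, Eef1a1, Fbxo33, Cep95, Klrb1c, Klf16, Zfp414, Zfp239, Zfp869, Usp5, Bud31, Gpsm3 and Rexo1, with values of 7.12 to 10.5. The members with the most replicate 2 listed bases were promoter peaks too, at Hira (a histone chaperone gene; 640 bases), Ublcp1 (580 bases) and Sptb (540 bases).

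The members with the most footprints lay in promoters, with 9 each at Eef1a1, the translation elongation factor gene, and at Foxa3, a liver transcription factor gene, and 8 each at Ppp2r3d, Fosl1 and Kcnh4, of which the last 2 were isolated members. The Foxa3 member lay at the threshold, with a value of 1.503, 440 bases from a replicate 2 peak and with no base listed in replicate 2. The Eef1a1 member had a value of 9.51, touched a replicate 2 peak and was listed in replicate 2 over its whole length.

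Only 16.9% of isolated members (14.2 to 19.9) were found within 1000 bases of a protein-coding start, against 45.1% of overlapping peaks weighted to the same value bands. Close members had the opposite pattern, with 81.5% (78.1 to 84.7) against 51.3%. Over all members together the share was 45.8% (43.0 to 48.6), near the weighted 47.9% of overlapping peaks. The joint figure thus hid both patterns. Yet the split was by distance to replicate 2 peaks, and 65.3% of overlapping peaks, unweighted, lay near a start. The isolated share moved with the cut, to 27.1% at 200 bases and 14.1% at 2000, so these shares depend on the split. Isolated members were in introns in 36.1%, between genes in 33.8% and in exons in 13.2%, whereas the weighted overlapping peaks were there in 20.3%, 27.6% and 6.94%. The median distance of isolated members to a start was 5818 bases. Of the 704, 346 lay more than 1000 and up to 10000 bases from a start, 210 up to 50000 bases away and 29 farther. More than 5000 bases separated 315 of them (44.7%) from any replicate 2 peak, and 195 (27.7%) had another isolated member within 10000 bases.

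**Figure D3:**
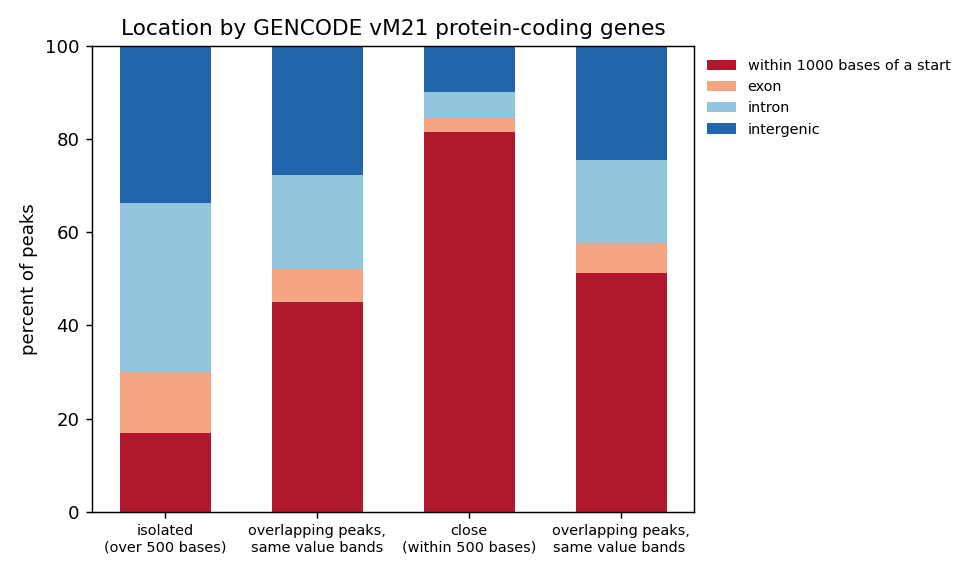
Percent of isolated members, of close members and of overlapping peaks weighted to the value bands of each, within 1000 bases of a protein-coding start, in exons, in introns and between genes. The share near a start is 16.9% for isolated members and 81.5% for close members, against 45.1% and 51.3% for the overlapping peaks beside them.

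The sequences differed in composition. The median GC content was 54.8% in isolated members, 63.2% in close members and 62.4% in overlapping peaks, and the CpG dinucleotides per 100 bases were 1.80, 6.88 and 7.0. Away from starts the median GC content was 54.0% in isolated members and 55.5% in overlapping peaks, with 1.65 and 2.50 CpG per 100 bases. Within 1000 bases of a start it was 60.5% and 65.9%, with 3.21 and 8.82 CpG per 100 bases. More than 50% of the bases were masked as repeats in 7.95% of isolated members (6.06 to 10.2) and 2.11% of close members. The share was 2.52% of overlapping peaks weighted to the isolated members. Unlike GC content, these shares were not split by distance to a start, and isolated members lay more often away from starts. One of the highest isolated members, in an intron of Rbm19 with a value of 3.38, was masked over its whole length, and the sources used here do not say how reads were placed in repeats.

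Away from starts, isolated members held the GATA, composite GATA and E-box, KLF and SP motifs at higher shares, and the CTCF motif at a lower share, than overlapping peaks weighted to the same value bands. The central 150 bases of 585 isolated and 6382 overlapping distal peaks were searched for 20 motifs on both strands. AGATAA, the core bound by GATA factors, was in 21.2% of isolated members (17.9 to 24.7), against 14.2% of overlapping peaks. The composite GATA and E-box motif, known from sites of GATA1 with TAL1, was in 10.1% (7.77 to 12.8), against 6.05%. CCNCNCCC, of the KLF family, was in 39.5% (35.5 to 43.6), against 28.4%. GGGCGGGG, the SP motif whose letters can overlap the KLF match, was in 7.01% (5.08 to 9.39), against 4.99%. Without weighting, SP was in 7.66% of overlapping distal peaks, inside the interval. The unweighted GATA, composite, KLF and CTCF shares (14.8%, 6.82%, 33.0% and 13.6%) stayed outside theirs. The core motif of the insulator protein CTCF was in 8.38% (6.26 to 10.9), against 15.9%. No match of the NRF1 motif (GCGC, 1 free base, TGCGC) fell in isolated members (0.0 to 0.629), against 0.607%, which lies within the interval. For the remaining motifs the weighted share of overlapping peaks lay inside the interval too, among them TGTGGT of RUNX with 15.2% (12.4 to 18.4) against 12.9%, and the liver motif TGTTTNC of FOXA with 8.21% (6.11 to 10.7) against 10.2%. The motif of NFE2, a red cell factor, was among them too, with 1.37% (0.592 to 2.68) against 1.66%, as was TGANTCA of AP-1 with 5.81% (4.06 to 8.03) against 5.41%. Within 1000 bases of a start, the weighted shares also lay below the intervals of 119 isolated members for some motifs. GATA was in 7.56% (3.52 to 13.9) against 3.31%, and the composite motif in 6.72% (2.95 to 12.8) against 1.025%. KLF was in 61.3% (52.0 to 70.1) against 50.2%, and SP in 28.6% (20.7 to 37.6) against 17.2%. Without weighting, KLF (57.5%) and SP (27.2%) lay inside the intervals. CTCF (0.840% against 1.945%) lay inside its interval. These are intervals around shares of regions, not tests between conditions, and the 20 were looked at side by side.

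**Figure D4:**
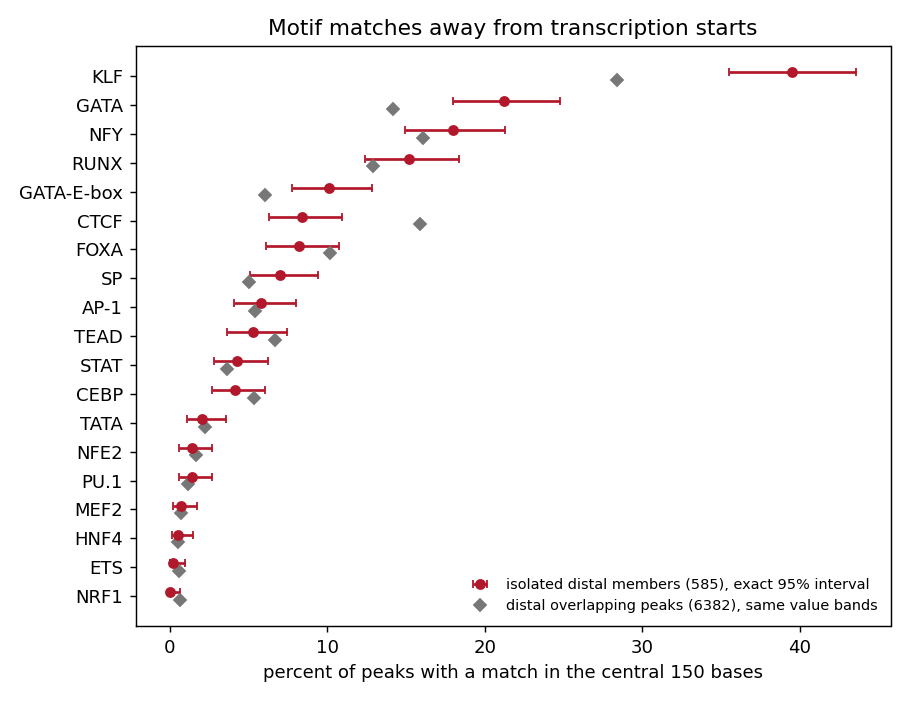
Percent of distal peaks with a motif match in the central 150 bases, for 585 isolated members (points with exact 95% binomial intervals) and for 6382 overlapping peaks weighted to the same value bands (diamonds). KLF, GATA, GATA-E-box and SP have the diamond below the interval and CTCF has it above; HNF1, without a match in either set, is left out.

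The motif matches of the isolated distal members differed in how often a replicate 1 footprint touched them. Of 50 peaks with a CTCF match anywhere in the peak, 48 (96.0%, 86.3 to 99.5) had a footprint on it, and of 45 with the SP motif, 38 (84.4%). The KLF motif was touched in 158 of 253 (62.5%), the composite GATA and E-box motif in 31 of 65 (47.7%), AP-1 in 12 of 40 (30.0%) and NFE2 (TGCTGA, 1 free base, TCA) in 7 of 9 (77.8%). AGATAA was touched in 25 of 138 (18.1%, 12.1 to 25.6), RUNX in 20 of 107 (18.7%) and the CCAAT letters of NFY in 21 of 119 (17.6%). The Car2 and Nprl3 sites printed above are an example each of AGATAA inside and outside a footprint. The motifs differ in length, from 5 bases for NFY to 16 for the composite motif, and a longer match offers more bases to touch. Whether length accounts for the differences was not tested. No such counts are given for overlapping peaks, so these shares do not set the members apart from them.

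By nearest gene, some red cell lists held isolated members at higher shares than the 3.58% over all genes, but among distal peaks alone the interval of every list included the share over all genes. Among regulators of red cell formation, 14 of 93 peaks at or above 1.5 were members (15.1%, against 6.48% of all peaks). Of the 93 peaks, 11 were isolated members (11.8%, 6.05 to 20.2), and these were nearest to 7 genes. The signalling and survival genes downstream of erythropoietin had 5 isolated members of 37 peaks (13.5%, 4.54 to 28.8). The globins and Nprl3 had 3 of 14 (21.4%, 4.66 to 50.8), heme and iron genes 4 of 55 (7.27%, 2.02 to 17.6) and red cell membrane and blood group genes 3 of 64 (4.69%, 0.977 to 13.1). The interval excluded 3.58% for the first 3 of these lists and included it for the heme and the membrane genes. Of distal peaks, 8.27% were isolated members over all genes. The share was 14.6% for the regulators (7 of 48, 6.07 to 27.8), 21.1% for the signalling genes (4 of 19, 6.05 to 45.6) and 33.3% for the globins and Nprl3 (3 of 9, 7.49 to 70.1). It was 18.2% for heme and iron genes (4 of 22, 5.19 to 40.3) and 7.69% for membrane genes (3 of 39, 1.61 to 20.9). Peaks near one gene are not independent, and the lists were drawn up with results of these libraries known.

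**Figure D5:**
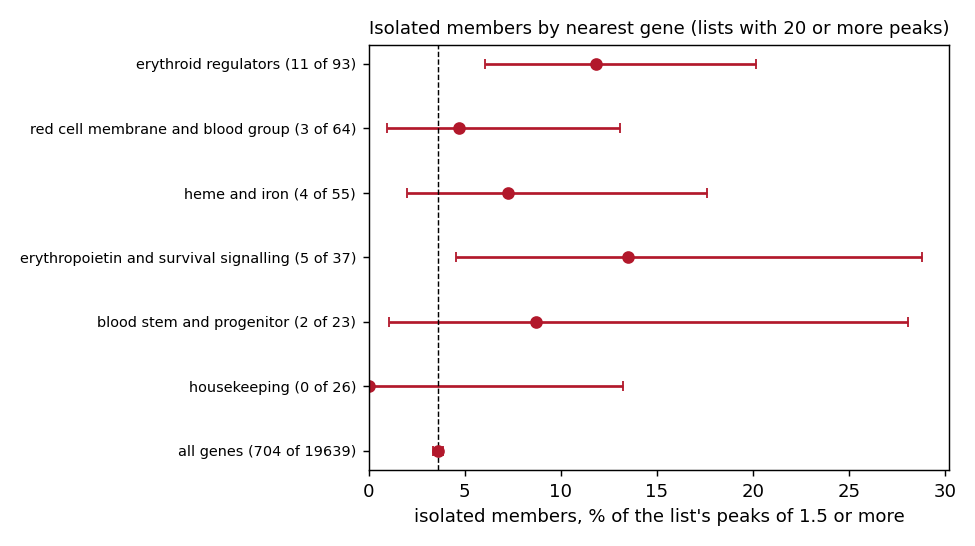
Isolated members as a percent of all replicate 1 peaks at or above 1.5 with the nearest protein-coding start in each gene list (points, exact 95% binomial intervals), for lists with 20 or more peaks; the dashed line is the 3.58% over all genes. Regulators (11 of 93) and erythropoietin and survival signalling (5 of 37) lie with their intervals above the line; among distal peaks alone the intervals of these lists include the 8.27% over all genes.

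Among the regulators, the highest members were in an intron of Lmo2, a bridging subunit of the GATA1 and TAL1 complex, with a value of 2.67, and at the start of Nfia, a nuclear factor gene that takes part in human erythroid differentiation, with 2.53. Neither had a base listed in replicate 2, and the nearest replicate 2 peaks were 11878 and 840 bases away. Ldb1, which encodes the looping factor of the same complex, had an intronic member of 2.21. Zfpm1, which encodes FOG1, the cofactor of GATA1, had 4 isolated members of 2.17, 1.89, 1.77 and 1.76, of which 1 had 11 bases listed in replicate 2. The repressor gene Gfi1b had members of 2.04 and 1.94 within 1000 bases of a start, and the corepressor gene Cbfa2t3 had an intronic one of 1.91. Lyl1, a TAL1 relative, had 4 members, of which 1 was isolated (1.70); the members of 2.07 and 1.87 overlapped each other and stand for 1 site.

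Heme and iron genes had 5 members of 55 peaks (9.09%), and red cell membrane and blood group genes 5 of 64 (7.81%), against 6.48% of all peaks. The highest of the heme list, at the start of Uros, a heme synthesis enzyme gene, was a close member of 5.92 with all 280 bases listed in replicate 2. The isolated ones were nearest to the iron transporter gene Slc11a2 (2.23), the mitochondrial carrier genes Slc25a37 (2.18) and Slc25a38 (2.02), and Fech, which encodes ferrochelatase (1.70). Only the Slc25a37 site had listed bases in replicate 2, 28 of them with a lowest rate of 0.0348. Membrane genes had a close member at the start of Sptb, the beta-spectrin gene (2.29), and one in Rhd (1.59). Their isolated members were at Add2, a beta-adducin gene (1.63), Ank1, the ankyrin gene (1.59), and Slc4a1, the band 3 anion exchanger gene (1.53).

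In the signalling list, Pim1, a survival kinase gene induced by STAT5, had isolated members of 2.77, 2.66 and 1.90. The first 2 lay 6214 and 7494 bases from its start and 7680 and 8960 bases from a replicate 2 peak, with 4 and 3 footprints in replicate 1. Bcl2l1, which encodes the survival protein Bcl-xL, had intronic members of 1.75 and 1.74. The progenitor list had 2 isolated members of 23 peaks (8.70%, 1.07 to 28.0, which includes 3.58%), both nearest to Runx1, a haematopoietic transcription factor gene, at 321472 and 303452 bases, with values of 1.96 and 1.59.

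Lists for other cell types held few peaks at this strength in all. Megakaryocyte and platelet genes had 0 members of 9 peaks, lymphoid genes 0 of 3, mature hepatocyte genes 0 of 3, stellate and mesenchymal genes 0 of 7, cholangiocyte genes 0 of 1 and neuronal genes 0 of 4, and endothelial genes had no peak. A share of 0 of 9 allows up to 33.6%, which includes the 6.48% over all genes. Macrophage and myeloid genes had 1 member of 8, isolated, near the granulocyte factor gene Cebpe (1.60). Hepatoblast genes had 1 of 8, the close Foxa3 member. Muscle genes had 1 of 4, isolated, in Mylpf, a myosin light chain gene (1.80). Housekeeping genes had 2 of 26, both close, among them the Eef1a1 member described above. No housekeeping peak was an isolated member, which allows up to 13.2%.

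Beyond the lists, the highest isolated members after Nprl3, taken after their values were seen, lay in various genes. The start of Hmg20b, which encodes a subunit of the LSD1 and CoREST repressor complex, had 3.83, with a second isolated member of 2.69 in an exon. An intron of Tbxas1, the thromboxane synthase gene, had 3.82, with no base listed in replicate 2. Gm17657 (3.68), Slc5a5, the iodide transporter gene (3.66), Grina (3.56), Reep6 (3.49), Ssh1, a cofilin phosphatase gene (3.46), and Ddah2 (3.39 and 3.31) followed. The Gm17657 site had 37 bases listed in replicate 2, with a lowest rate of 0.0300. The Ddah2 site of 3.31 had 26 listed bases, with a lowest rate of 0.0393. The sites of Slc5a5, Grina, Reep6 and Ssh1 and the Ddah2 site of 3.39 had none.

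Some genes had several isolated members nearest to their starts. The number of replicate 1 peaks around each gene is not given. These counts thus yield no share to set beside the 3.58% over all peaks, and genes with many peaks can rank high by number alone. Tbxas1 and Ssh1 had 5 isolated members each, and Ccdc88c had 5 members, of which 4 were isolated. Slc29a1, the nucleoside transporter gene ENT1, and Zfpm1 had 4 each. The Tbxas1 members had values of 3.82, 2.51, 2.21, 2.02 and 1.79, all intronic, and none had a base listed in replicate 2. The Ssh1 members had 3.46, 2.22, 1.86, 1.79 and 1.77, and 2 of them had listed bases (19 and 21). Members around 1 gene may belong to 1 open domain and are not separate observations of it.

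Further isolated members near genes of the red cell lineage were picked after their values were seen, and the highest at Cpeb4, Car2, Klf3 and Hemgn are those printed above. The site near Cpeb4, a translational regulator of terminal erythroid differentiation, lay 40371 bases from its start with a value of 3.15, and a second isolated one had 1.54. The sites near Car2, the carbonic anhydrase of red cells, had 2.86 and 1.74, and the higher lay 7013 bases from its start. The site in Klf3, a KLF1 target and repressor, had 2.77, and the one in Hemgn, a GATA1 target of haematopoietic cells, had 2.72. Junb, an AP-1 subunit gene, had an isolated member of 3.20. Among these, replicate 2 listed 9 bases, with a lowest rate of 0.0464, at the Hemgn site and none at the others.

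The 7 isolated members with a replicate 2 rate under 0.001 were the exceptions and are named after their values were seen. They were nearest to Usp15, Sfr1, Cdv3, Zfp654, Stt3b, Usp22 and Wdfy2, with replicate 1 values of 1.52 to 2.26. All 7 lay within 1000 bases of a start and between 520 and 700 bases from a replicate 2 peak. The Cdv3 site was the only isolated member with a replicate 2 footprint. None of the 7 had a replicate 1 footprint, and at 6 of them every base was listed in replicate 2. They shared a promoter location and listed replicate 2 signal with most of the close members.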

How the data were processed

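DNase-seq signal was deposited per library as 4 tables derived from that library's alignments to mm10, per the file headers: 2 peak lists (longer and shorter), footprint positions, and false discovery rates for cleavage along the genome. Neither the peak caller, its version and threshold nor the read depth is given in the sources used here. Each peak's value is the authors' signal, whose values are multiples of 0.0123 in replicate 1 and 0.0139 in replicate 2, so the threshold of 1.5 is 122 steps in replicate 1. The deposited false discovery rate is an adjusted p-value (q-value type) listed only under 0.05. The deposited footprint score is the constant 0.01, so only positions were used.

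Intervals were compared with Python 3.11.15, pandas 2.3.3 and bedtools 2.31.1, using an overlap of 1 base; the interval functions were tested on simulated data. Locations came from GENCODE vM21 protein-coding genes and sequence from RefSeq GRCm38.p6 with pysam 0.24.0. Shares of overlapping peaks were weighted to the members' numbers in value bands with edges at 1.5, 2, 3, 5 and 10. Intervals are 95% exact binomial (scipy 1.17.1). With 1 group of 2 libraries, no test between conditions was made. Named members are the 20 highest, up to 2 per gene list (all for the globins and Nprl3), 3 on each side of the threshold, the 3 with most footprints, the 3 with most replicate 2 listed bases, the 3 highest with none and the genes with most members; list members beyond these were added after values were seen. The values of 1 member chosen by this rule are not reported here. All 223 genes of 17 lists were found in the annotation. Members, lists, motifs and the split at 500 bases were chosen with earlier results of these data known. Alternatives covered thresholds, lists, distances, footprints, false discovery rates, chromosome X and each replicate left out.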

Additional observations from a re-analysis of the deposited data

How the results depend on the processing

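The number of members depended on the threshold and lists. With a threshold of 1.0 there were 3675 members, of which 34.5% lay near a start and 33.1% had a replicate 2 listed run. With a threshold of 3 there were 160, with 81.9% near a start, 93.1% with a replicate 1 footprint and 90.0% with a listed run. With the shorter replicate 1 list the 3 shares were 52.1%, 73.0% and 59.0%. With the shorter replicate 2 list there were 3040 members, and the shares were 32.7%, 88.9% and 78.7%. When a replicate 2 peak within 500 bases counted as overlap, 704 members remained, with 16.9%, 96.2% and 18.8%. Without replicate 2 the rule left all 19639 peaks, with 64.0%, 94.6% and 96.7%; without replicate 1 no value is possible. The share near a start was 54.4% within 2500 bases and 54.6% with the starts of all annotated genes. The share with a listed run was 36.2% for runs of at least 50 bases and 36.5% for a rate under 0.01. Adding chromosome X, or requiring a footprint wholly inside the peak, moved no value beyond its interval. Alternatives chosen after seeing the data set the isolated gap to 200, 1000 or 2000 bases or left out repeats. The share of isolated members near a start was 27.1% with 200 bases and 14.1% with 2000, and the share of distal ones with AGATAA stayed between 21.0% and 22.2%. The cause of these shifts was not tested. No paired analysis was possible because there was only 1 group. Read depth and the scale between libraries limit what a missing replicate 2 peak says.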
